A study of Mus musculus with 6 samples.

Results

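The endothelial cells that line the vessels of the spinal cord are described here through 10 genes of their barrier. The 10 were chosen by name, with earlier results of these data known. Of the 54532 genes listed in the files, all 10 were found by symbol, and all 10 passed the filter on low values. The junction genes are Cldn5, Ocln and Cdh5, the genes of endothelial identity are Pecam1, Egfl7 and Flt1, and the transporter genes are Slco1a4, Abcb1a, Slc2a1 and Mfsd2a. The data are 6 RNA-seq libraries of cervical spinal cord from C57BL/6 mice. For 3 of them, dermatitis of a psoriasis-like kind had been produced with 50 mg of 5% imiquimod cream, put daily for 2 days on shaved neck skin. The other 3 come from mice given an equal amount of vehicle cream. The sources used here give neither age nor sex. The labels call the libraries of each group biological replicates. No source used here says that each library is a separate mouse, so p-values measure the spread between these libraries. Imiquimod is an agonist of Toll-like receptor 7, and the cream is put on the skin, so the cord was sampled at a distance from the treated site. The tissue was whole cord, in which a change in the number of endothelial cells and a change in RNA per cell cannot be told apart.

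Levels are in FPKM (fragments per kilobase of exon, corrected for library size), as the authors deposited them. The imiquimod libraries held 21242415 to 23200996 recovered fragments and the vehicle libraries 18174411 to 20672881, so every imiquimod library was deeper. Markers of cord tissue were abundant in all libraries: 7 oligodendrocyte genes summed to 5126 to 6580 FPKM in imiquimod cords and 7592 to 8118 FPKM in vehicle cords. For 6 neuronal genes the sums were 580.3 to 666 FPKM in imiquimod cords and 714 to 739 FPKM in vehicle cords. Both sums were lower in every imiquimod library, with 1 gene of each list (Opalin and Rbfox3) past the threshold defined below, and neither when any single vehicle library was omitted (limma adjusted p up to 0.121 and 0.0909 over the settings that lost them). Their part in the results below was not tested. Gapdh stood at 26.4 FPKM in imiquimod replicate 3 and at 1.56 to 2.15 FPKM in the other 5 libraries. Without imiquimod replicate 3, Cldn5, Cdh5, Pecam1, Egfl7 and Slco1a4 kept their calls given below, and Mfsd2a lost its call (limma adjusted p = 0.0644).

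The blood-brain barrier, and its counterpart in the spinal cord, is formed by endothelial cells that seal their contacts and control what crosses them. Tight junctions, built from claudins and occludin, close the cleft between neighbouring cells, and VE-cadherin holds the adherens junctions below them. Few vesicles cross the cells, so nutrients enter through carriers on the membrane and drugs are pumped back by efflux transporters. Wnt signalling from neural cells through beta-catenin is known to induce and maintain this state.

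Among the 10 genes, junction and identity genes were mostly higher and transporters were partly lower in the imiquimod cords. In the limma fit over all 16513 genes tested, with p-values adjusted by Benjamini-Hochberg and a threshold of 0.05, 4 members were higher and 2 were lower. Higher were Cldn5, Cdh5, Pecam1 and Egfl7, at 2.21 to 2.44 times the vehicle mean. Lower were Slco1a4, at 53.3% of the vehicle mean, and Mfsd2a, at 83.1%. Ocln, Flt1, Abcb1a and Slc2a1 did not pass. Of all genes tested, 14.1% passed, 8.74% as higher and 5.34% as lower in imiquimod cords. The same 6 members were the ones whose libraries did not overlap between groups, as was the case for 37.9% of the genes tested.

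**Figure D1:**
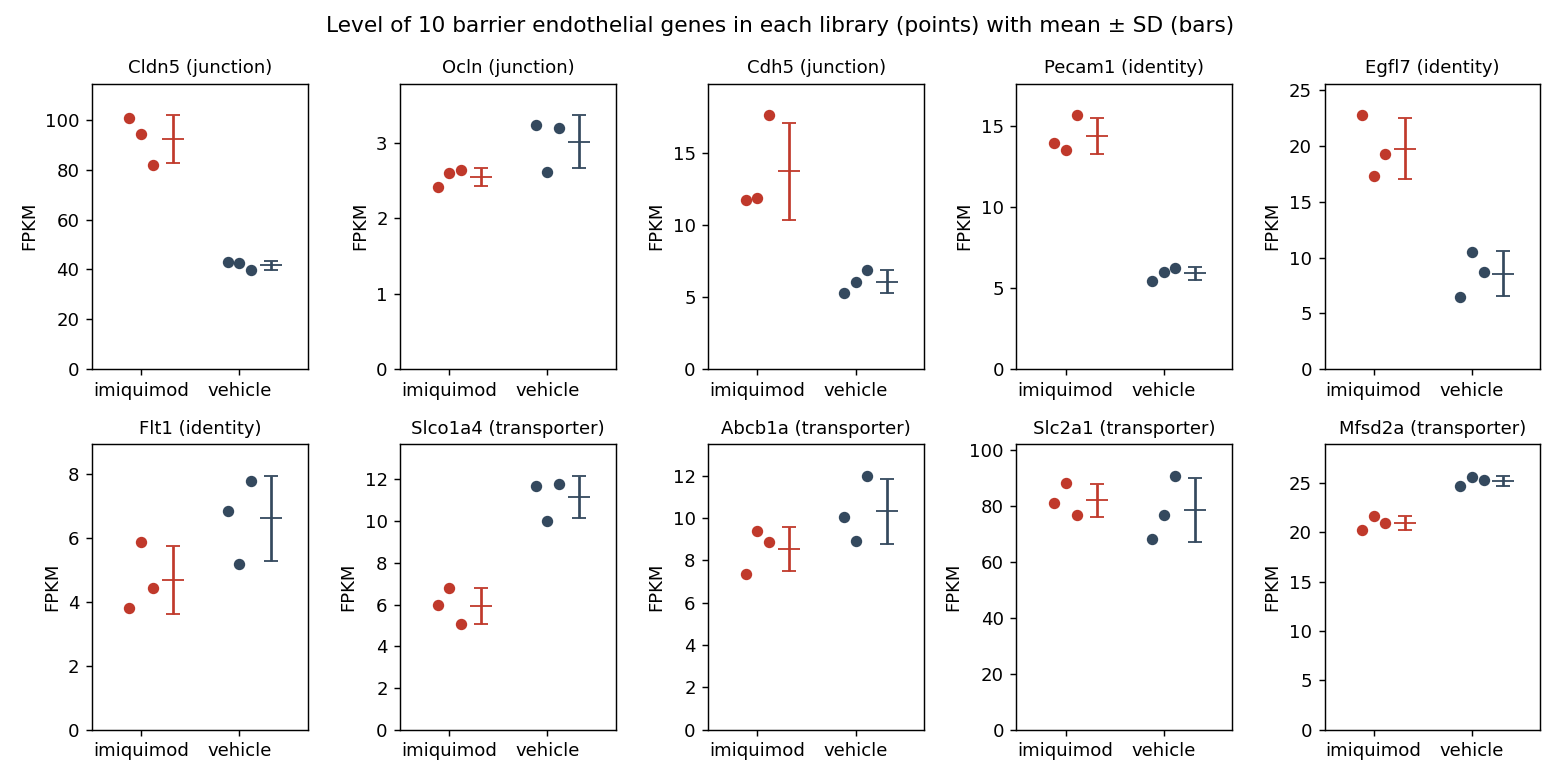
FPKM of each of the 10 genes by library, with the imiquimod group left of the vehicle group in each panel; points are libraries and bars give the mean ± SD of 3. Cldn5, Cdh5, Pecam1 and Egfl7 lie higher in every imiquimod library, Slco1a4 and Mfsd2a lie lower in every imiquimod library, and the groups overlap for the other 4 genes.

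The promoters of Cldn5, Slco1a4 and Mfsd2a are shown because these genes passed the test in opposite directions and have 1 listed start each. The 250 bases before the start are given 5′ to 3′ on the gene's strand, from RefSeq on GRCm38.p6, with the GC box (GGGCGG, either strand) in capitals. They lie at chr16:18776597-18776846 on the plus strand for Cldn5, at chr6:141856221-141856470 on the minus strand for Slco1a4 and at chr4:122961189-122961438 on the minus strand for Mfsd2a.
Cldn5: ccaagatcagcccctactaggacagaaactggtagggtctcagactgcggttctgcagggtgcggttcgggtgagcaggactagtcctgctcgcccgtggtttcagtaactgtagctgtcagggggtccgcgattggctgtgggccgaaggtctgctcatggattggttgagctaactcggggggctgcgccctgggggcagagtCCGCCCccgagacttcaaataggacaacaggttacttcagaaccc
Slco1a4: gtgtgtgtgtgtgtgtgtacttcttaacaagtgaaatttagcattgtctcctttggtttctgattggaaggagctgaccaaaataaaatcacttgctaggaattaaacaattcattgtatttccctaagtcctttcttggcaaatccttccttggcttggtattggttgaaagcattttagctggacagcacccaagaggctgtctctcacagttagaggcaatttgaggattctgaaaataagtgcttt
Mfsd2a: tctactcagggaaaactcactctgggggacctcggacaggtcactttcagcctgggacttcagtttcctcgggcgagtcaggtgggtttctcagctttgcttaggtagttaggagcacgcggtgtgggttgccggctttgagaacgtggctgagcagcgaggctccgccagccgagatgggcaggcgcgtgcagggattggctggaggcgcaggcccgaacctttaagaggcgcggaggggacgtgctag

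The Cldn5 window held 1 GC box, from -45 to -40 relative to the start, and 12 CpG dinucleotides. The Slco1a4 window held no GC box and 0 CpG dinucleotides, and that of Mfsd2a no GC box and 17 CpG dinucleotides. Promoters were listed for 8 of the 10 genes, at 11 starts, 3 of them for Egfl7 and 2 for Ocln. Of these 11 windows 6 held a GC box, against 32.7% of all 32851 windows of the same length. The interferon-stimulated response element, searched on both strands as GAAA, 2 bases of any kind and GAAA, was in 0 of the 11 windows and in 2.98% of all windows. The gamma-activated site of STAT dimers, searched as TTCNNNGAA, was in 0 of the 11 and in 7.02% of all. The ETS site CCGGAAG was in 0 of the 11 and in 6.91% of all, and the TCF/LEF site CTTTGAT was in 1, of Egfl7, and in 3.21% of all. A match describes letters only, and its absence says nothing about the factor.

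Claudin-5, encoded by Cldn5 (ENSMUSG00000041378, chr16:18776847-18778262, plus strand, with 1416 exonic bases; all gene positions are on GRCm38), is the main claudin of brain endothelial tight junctions. It stood at 101, 94.2 and 81.7 FPKM in the imiquimod cords, against 42.9, 42.5 and 39.6 FPKM in the vehicle cords. The lowest imiquimod library was far above the highest vehicle library. The means were 92.2 ± 9.62 FPKM in imiquimod cords and 41.7 ± 1.78 FPKM in vehicle cords (SD, n = 3 each). On the log2(FPKM + 0.1) scale, on which all log2 changes are given ± SE, Cldn5 rose by 1.14 ± 0.09 (limma adjusted p = 0.00106).

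VE-cadherin, encoded by Cdh5 (ENSMUSG00000031871, chr8:104101625-104144511, plus strand), is the adhesion molecule of endothelial adherens junctions. It stood at 11.7, 11.9 and 17.6 FPKM in the imiquimod cords, against 5.26, 6.02 and 6.85 FPKM in the vehicle cords. All imiquimod libraries were higher, and replicate 3 was the highest of them. Cdh5 rose by 1.15 ± 0.18 (limma adjusted p = 0.00863), and by 0.96 without imiquimod replicate 3.

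Occludin, encoded by Ocln (ENSMUSG00000021638, chr13:100496507-100552718, minus strand), is a 4-pass membrane protein of tight junctions. It stood at 2.41, 2.60 and 2.63 FPKM in the imiquimod cords, against 3.24, 2.62 and 3.20 FPKM in the vehicle cords. Vehicle replicate 2 lay among the imiquimod libraries, so the groups overlapped. The log2 change was -0.23 ± 0.11, with a 95% interval of -0.49 to 0.03, and did not pass (limma adjusted p = 0.211). Ocln was the lowest of the 10 genes, at 210 to 261 recovered fragments per imiquimod library and 192 to 264 per vehicle library. Its interval lay wholly below those of Cldn5 and Cdh5, which began at 0.93 and 0.74. Of the 3 junction genes, 2 thus rose and Ocln did not pass.

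Pecam1 (ENSMUSG00000020717, chr11:106654217-106750628, minus strand) encodes CD31, an adhesion molecule at endothelial cell borders that leukocytes and platelets also carry. It stood at 13.98, 13.6 and 15.7 FPKM in the imiquimod cords, against 5.44, 6.01 and 6.27 FPKM in the vehicle cords. The groups lay well apart, and Pecam1 rose by 1.27 ± 0.09 (limma adjusted p = 7.35e-04), the smallest adjusted p of the 10. Of 10 leukocyte markers 7 were tested and 5 were higher, Ptprc, Ccr2, Ly6c2, Itgal and Nkg7, all named after their values were seen. Over all genes tested, 8.74% were higher and 5.34% lower. The summed level of the 10 leukocyte markers was 38.0, 26.9 and 43.2 FPKM in imiquimod cords, against 11.6, 39.2 and 13.7 FPKM in vehicle cords. The sums overlapped only through vehicle replicate 2. Of 4 platelet markers none was higher by limma (0 at an unadjusted p under 0.05, and 0 by voom) and 1 was lower, Pf4, a call lost when imiquimod replicate 1 or 2 or any single vehicle library was omitted (limma adjusted p from 0.0616 to 0.114 over the settings that lost it). Their sum was 1.35 to 4.41 FPKM in imiquimod cords and 4.96 to 10.2 FPKM in vehicle cords. Both lists were chosen after values of these data were seen, and the part of these cells in the level of Pecam1 was not tested.

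Egfl7 (ENSMUSG00000026921, chr2:26580014-26593120, plus strand) encodes a protein secreted by endothelial cells and hosts the miR-126 hairpin. It stood at 22.8, 17.3 and 19.3 FPKM in the imiquimod cords, against 6.49, 10.5 and 8.68 FPKM in the vehicle cords. The imiquimod libraries were all higher, although the vehicle libraries also differed among themselves. Egfl7 rose by 1.22 ± 0.18 (limma adjusted p = 0.00793). Its annotated exons share 64 bases with Agpat2 on the other strand, and Agpat2 stood at 1.72 FPKM or less in every library. Without a stated strand setting, reads in that stretch cannot be assigned to either gene. The same holds for 105 bases that Slc2a1 shares with Gm12868, which stood at 2.82 FPKM or less. It also holds for 553 bases that Abcb1a shares with Gm42686, which stood at 0.0622 FPKM or less. On its own strand Egfl7 shares 264 bases with Gm20532 and 73 with Mir126a, and on the other strand 58 with Mir126b. Those stood at 0 FPKM in every library.

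Flt1 (ENSMUSG00000029648, chr5:147561604-147726011, minus strand) encodes VEGF receptor 1, which binds VEGF-A and placental growth factor. It stood at 3.79, 5.86 and 4.42 FPKM in the imiquimod cords, against 6.85, 5.18 and 7.80 FPKM in the vehicle cords. Imiquimod replicate 2 was higher than vehicle replicate 2, so the groups overlapped. The log2 change was -0.49 ± 0.20 with a 95% interval of -0.96 to -0.02, and the gene did not pass over all genes (limma adjusted p = 0.151). Its interval did not reach those of Pecam1 and Egfl7, which began at 1.07 and 0.79.

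**Figure D2:**
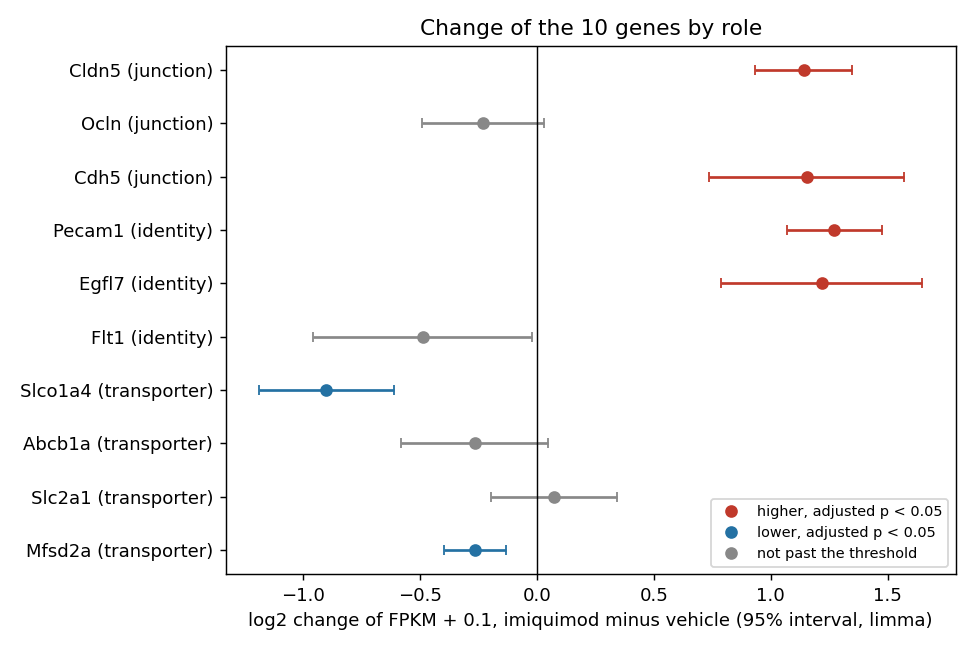
Log2 change of each of the 10 genes, imiquimod minus vehicle, with its 95% interval from limma, ordered by role from junction genes at the top to transporters at the bottom. Cldn5, Cdh5, Pecam1 and Egfl7 lie between 1.14 and 1.27, Slco1a4 lies at -0.90 and Mfsd2a at -0.27, both past the threshold, and the other 4 lie between -0.49 and 0.07.

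Slco1a4 (ENSMUSG00000030237, chr6:141805440-141856199, minus strand) encodes an organic anion transporter of the barrier. It stood at 5.97, 6.80 and 5.08 FPKM in the imiquimod cords, against 11.7, 9.99 and 11.8 FPKM in the vehicle cords. Every imiquimod library was lower, and Slco1a4 fell by 0.90 ± 0.12 (limma adjusted p = 0.00573). It has close relatives in its gene cluster, and no source says how reads matching several of them were counted.

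Mfsd2a (ENSMUSG00000028655, chr4:122946850-122961188, minus strand) encodes a carrier of lysophospholipids with omega-3 fatty acids, which also holds down vesicle transport across the endothelium. It stood at 20.2, 21.7 and 20.97 FPKM in the imiquimod cords, against 24.7, 25.7 and 25.3 FPKM in the vehicle cords. The difference was small, but the libraries of each group lay close together. Mfsd2a fell by 0.27 ± 0.06 (limma adjusted p = 0.0263). The call was lost when imiquimod replicate 3 or any single vehicle library was left out (limma adjusted p from 0.0644 to 0.108), with changes of -0.25 to -0.28.

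Abcb1a (ENSMUSG00000040584, chr5:8660077-8748575, plus strand) encodes P-glycoprotein, the efflux pump that keeps many drugs out of the nervous system. It stood at 7.37, 9.38 and 8.85 FPKM in the imiquimod cords, against 10.03, 8.92 and 11.98 FPKM in the vehicle cords. The groups overlapped at vehicle replicate 2. The log2 change was -0.27 ± 0.13 with a 95% interval of -0.58 to 0.05, and did not pass (limma adjusted p = 0.228). That size equals the change of Mfsd2a, whose libraries were less spread. Its close copy Abcb1b had a mean of 0.559 FPKM in imiquimod cords and 0.457 FPKM in vehicle cords, and did not pass either (log2 change 0.24, limma adjusted p = 0.546).

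Slc2a1 (ENSMUSG00000028645, chr4:119108711-119137983, plus strand) encodes GLUT1, the glucose carrier of the barrier, which astrocytes express too. It stood at 81.1, 88.2 and 76.5 FPKM in the imiquimod cords, against 67.9, 76.5 and 90.5 FPKM in the vehicle cords. The vehicle libraries spanned the whole imiquimod range. The log2 change was 0.07 ± 0.11 with a 95% interval of -0.20 to 0.34 (limma adjusted p = 0.705), and it was -0.02 without vehicle replicate 1. The interval excludes a rise as large as those of Cldn5 or Cdh5.

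The order of the 10 levels, which FPKM gives per length of exon, differed between the groups. In imiquimod cords Cldn5 had the highest mean, and its range of 81.7 to 101 FPKM overlapped that of Slc2a1. Then came Mfsd2a and Egfl7 (means of 20.96 and 19.8 FPKM, overlapping), Pecam1 and Cdh5 (14.4 and 13.7 FPKM, overlapping), and Abcb1a at 8.53 FPKM. Slco1a4 and Flt1 followed at 5.95 and 4.69 FPKM with overlapping ranges, and Ocln was last at 2.55 FPKM. In vehicle cords Slc2a1 was first (78.3 FPKM), followed without overlap by Cldn5 (41.7 FPKM) and Mfsd2a (25.2 FPKM). Slco1a4, Abcb1a and Egfl7 came next at 11.2, 10.3 and 8.55 FPKM, followed by Flt1, Cdh5 and Pecam1 at 6.61, 6.04 and 5.91 FPKM. From Slco1a4 to Pecam1 each gene's range overlapped that of the next. Ocln was last at 3.02 FPKM.

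The contrast between junction genes and transporters was measured within each library as a log2 ratio of FPKM + 0.1. Each of the 3 junction genes was set against each of the 4 transporters, 12 pairs in all. In 9 of the 12 pairs every imiquimod library had a higher ratio than every vehicle library, and the other 3 pairs overlapped. The 12 pairs reuse 7 genes, and 8 of the 9 separate pairs hold Cldn5 or Cdh5. Cldn5 and Cdh5 were each already separate as single genes. The remaining pair, Ocln to Slco1a4, holds Slco1a4, which was already separate as a lower gene, and Ocln itself did not pass. Among single genes tested, 19.8% had every imiquimod library above every vehicle library, and 18% had every imiquimod library below. These shares are for levels and not for ratios, and no share over gene pairs was computed. For Cldn5 to Slco1a4 the log2 ratios were 4.05, 3.77 and 3.98 in the imiquimod cords, against 1.86, 2.08 and 1.74 in the vehicle cords. Averaged over the 3 libraries of a group, Cldn5 stood at 15.4 times the level of Slco1a4 in imiquimod cords and at 3.74 times in vehicle cords. For Cldn5 to Slc2a1 they were 0.31, 0.10 and 0.09 in the imiquimod cords, against -0.66, -0.85 and -1.19 in the vehicle cords. Cldn5 was therefore above Slc2a1 in every imiquimod library and below it in every vehicle library.

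Over the 4 transporters the difference in log2 ratio, imiquimod minus vehicle, was 1.07 to 2.04 for Cldn5 and 1.08 to 2.06 for Cdh5. For Ocln it was -0.30 to 0.67, with separate groups only against Slco1a4. The ratio of Ocln to Slco1a4 was -1.27, -1.36 and -0.92 in the imiquimod cords, against -1.82, -1.89 and -1.85 in the vehicle cords. The 9 separate pairs had an exact permutation p of 0.1 (two-sided), which is the lower limit for 3 against 3 libraries, or 0.133 adjusted by Benjamini-Hochberg over the 12 pairs. The other 3 had a two-sided exact permutation p from 0.2 to 1. After quantile normalization Ocln to Slc2a1 was also separate, with imiquimod lower (difference -0.34). No pair could thus pass a threshold of 0.05 by this test.

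**Figure D3:**
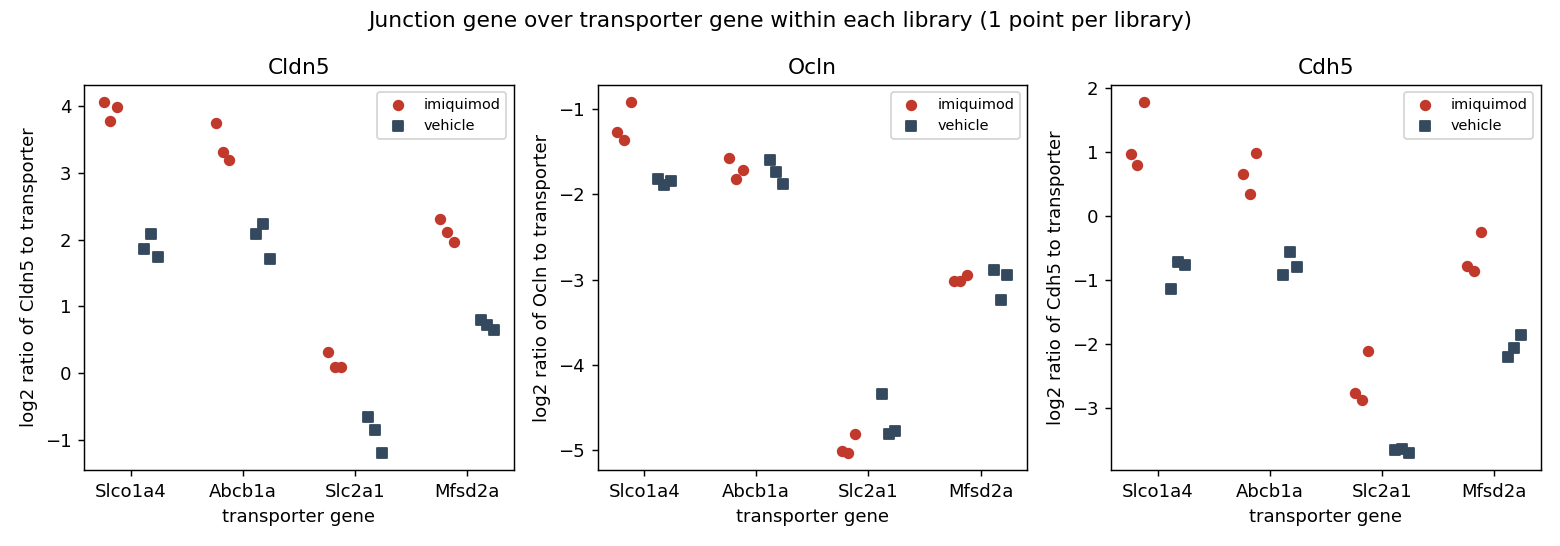
Log2 ratio of each junction gene (1 panel each) to each transporter gene (x axis) within each library; round points are imiquimod libraries and square points, to their right, vehicle libraries. The groups are apart for all 4 transporters under Cldn5 and Cdh5, and only for Slco1a4 under Ocln.

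Many other endothelial identity genes were higher too. Of 26 other identity genes, all tested, 16 were higher, 1 was lower and 9 did not pass. Among all genes tested, 8.74% were higher and 5.34% lower in imiquimod cords. The median log2 change of the 26 was 0.70, against -0.01 over all genes tested. The part of cells other than endothelium in these counts was not tested. Mmrn2, which encodes an endothelial matrix protein, was 6.68 ± 0.96 FPKM in imiquimod cords and 2.38 ± 0.23 FPKM in vehicle cords (SD, n = 3 each) and rose by 1.45 ± 0.13 (limma adjusted p = 0.00149). Cd93, a surface receptor of endothelial and myeloid cells, rose by 2.02 ± 0.18, and Nos3, the endothelial nitric oxide synthase, by 1.05 ± 0.11. The lower gene was S1pr1, a receptor for sphingosine-1-phosphate that astrocytes express too, at 29.2 ± 1.82 FPKM in imiquimod cords and 39.1 ± 1.64 FPKM in vehicle cords. It fell by 0.42 ± 0.07 (limma adjusted p = 0.0107), and its call ended without vehicle replicate 1 (limma adjusted p = 0.0570). Not every identity gene followed: Tek, the angiopoietin receptor, had a log2 change of 0.19 ± 0.14 and Vwf, the von Willebrand factor, of 0.43 ± 0.34, both not past the threshold and picked after their values were seen. When 1 library was omitted, between 12 and 20 identity genes were higher.

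Of 21 other barrier transporters 20 were tested, of which none was higher by limma (1 at an unadjusted p under 0.05, 0 by voom, and 1 after removal of length and GC trends), 4 were lower and 16 did not pass. Over all genes tested, 8.74% were higher and 5.34% lower. The median log2 change of the 20 transporters was -0.06, close to the -0.01 over all genes, and 8 of the 20 changes were above 0. Slc22a8, an organic anion transporter, stood at 1.35, 0.977 and 2.93 FPKM in the imiquimod cords, against 5.25, 4.27 and 4.88 FPKM in the vehicle cords, and fell by 1.54 ± 0.35. Slco1c1, a thyroxine transporter of endothelium and astrocytes, stood at 3.82, 7.31 and 2.24 FPKM in the imiquimod cords, against 11.8, 9.91 and 13.1 FPKM in the vehicle cords, and fell by 1.51 ± 0.38. In both genes the imiquimod libraries were widely spread and all lower. Slc38a3, a glutamine transporter, fell by 0.40 ± 0.09. Slc40a1, the iron exporter ferroportin, fell by 0.87 ± 0.22 and is named beside the other 3 after its value was seen. Limma adjusted p-values of the 4 were 0.0317 to 0.0464, and without 1 library the count of lower genes ran from 0 to 6. It was 0 when imiquimod replicate 1 or any single vehicle library was omitted, 1 when imiquimod replicate 3 was, and 6 when imiquimod replicate 2 was. At an unadjusted p under 0.05 the full set of libraries had 7 lower genes, and voom on the recovered fragments called 6.

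Cells other than endothelium also express some of these transporters, and their markers moved in part. Of 8 astrocyte markers 1 was higher, Aldh1l1 (log2 change 0.76), and 2 were lower, Gja1 (-1.10) and Slc1a2 (-0.70). These 3 calls were kept in every alternative run. At an unadjusted limma p under 0.05, 2 were higher and 4 were lower. By voom 1 was higher and 4 were lower, with Aqp4 and Gjb6 beside Gja1 and Slc1a2. Over all genes tested, 8.74% were higher and 5.34% lower by limma. The sum of the 8 astrocyte markers was 930 to 1077 FPKM in imiquimod cords and 983 to 1039 FPKM in vehicle cords. Of 9 markers of meningeal fibroblasts, which lie beside the arachnoid barrier, none passed by limma (0 at an unadjusted p under 0.05, and 0 by voom), and their sum was 17.9 to 116 FPKM in imiquimod cords and 39.2 to 75.9 FPKM in vehicle cords. Of 5 genes of red blood cells none passed by limma (4 lower at an unadjusted p under 0.05, and 0 by voom), with sums of 44.6 to 155 FPKM in imiquimod cords and 125 to 490.1 FPKM in vehicle cords. The part of these cells in the transporter values was not tested.

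Other junction proteins went both ways. Of 18 listed 16 were tested, of which 3 were higher and 1 was lower, where 8.74% of all genes tested were higher and 5.34% lower. The median log2 change of the 16 was 0.02. F11r, which encodes the junctional adhesion molecule JAM-A, was 10.9 ± 0.79 FPKM in imiquimod cords and 4.97 ± 0.35 FPKM in vehicle cords (SD, n = 3 each), and rose by 1.11 ± 0.09 (limma adjusted p = 0.00106). Esam, an endothelial adhesion molecule, rose by 0.74 ± 0.11. Lsr, a protein of tricellular junctions, rose by 0.91 ± 0.17, a call that ended without imiquimod replicate 1 or 3 (limma adjusted p from 0.0542 to 0.0550). Jam2, the junctional adhesion molecule JAM-B, stood at 10.99, 12.2 and 10.2 FPKM in the imiquimod cords, against 18.8, 16.0 and 17.6 FPKM in the vehicle cords, and fell by 0.64 ± 0.09 (limma adjusted p = 0.00701). The JAM family genes F11r and Jam2 thus moved in opposite directions.

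**Figure D4:**
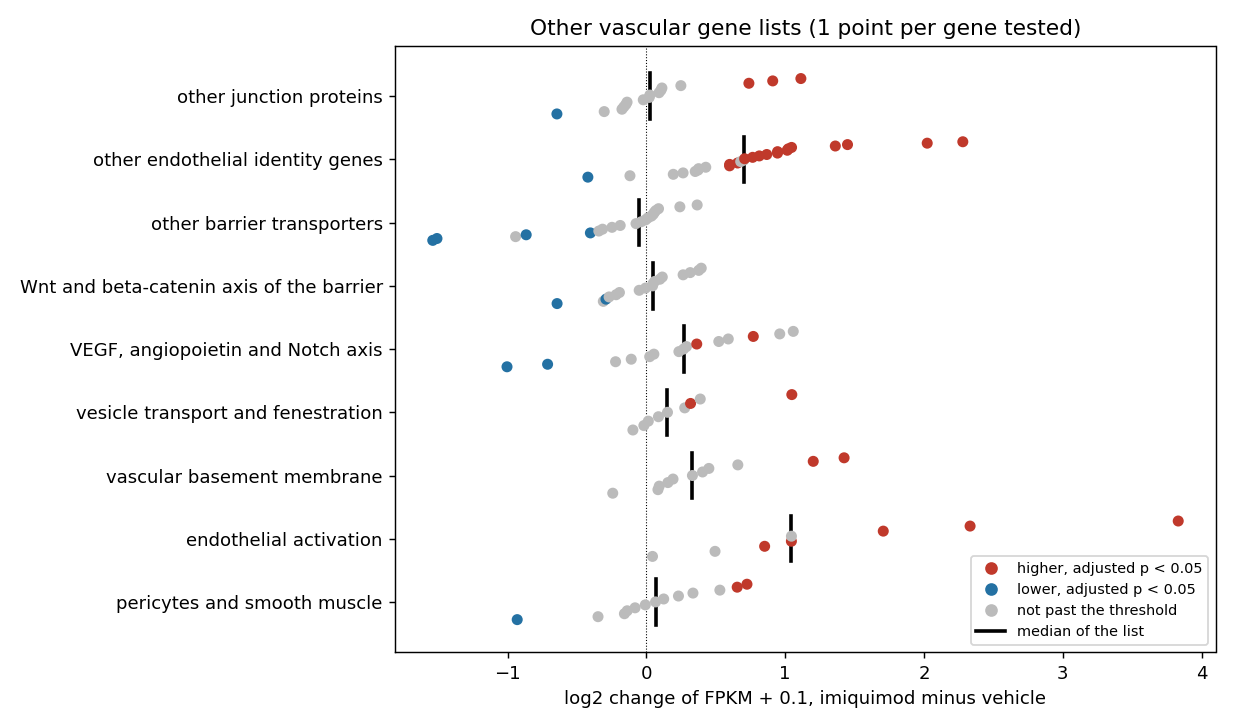
Log2 change, imiquimod minus vehicle, of every tested gene in 9 other vascular lists, 1 row per list; each point is a gene and the black line is the list's median. The medians are 0.70 for endothelial identity genes and 1.04 for endothelial activation genes, and -0.06 for barrier transporters.

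The signalling axes of the barrier had calls in both directions, where 14.1% of all genes tested passed. Of 18 genes of the Wnt and beta-catenin axis 17 were tested, none was higher by limma (2 at an unadjusted p under 0.05, and 1 by voom) and 2 were lower. Ndp, the ligand norrin, fell by 0.64 ± 0.11 (2.63 ± 0.29 FPKM in imiquimod cords and 4.16 ± 0.30 FPKM in vehicle cords), a call that ended without vehicle replicate 1 or 3 (limma adjusted p from 0.0542 to 0.0569). Nkd1, an inhibitor of Wnt signalling, fell by 0.29 ± 0.06, a call lost when imiquimod replicate 3 or any single vehicle library was omitted (limma adjusted p from 0.0704 to 0.104). Of 15 genes of the VEGF, angiopoietin and Notch axis 2 were higher and 2 lower. Aplnr, the apelin receptor, stood at 2.58, 2.70 and 2.82 FPKM in the imiquimod cords, against 7.07, 5.07 and 4.67 FPKM in the vehicle cords, and fell by 1.004 ± 0.155 (limma adjusted p = 0.00902). Its ligand gene Apln fell by 0.71 ± 0.07, so receptor and ligand were lower together. Notch4 rose by 0.77 ± 0.14, with limma adjusted p of 0.0509 to 0.0533 without imiquimod replicate 1, imiquimod replicate 3 or vehicle replicate 3. Pgf, a ligand of the receptor that Flt1 encodes, rose by 0.36 ± 0.09, a call that ended without any 1 of the 6 libraries (limma adjusted p from 0.0584 to 0.141 over all the settings in which it ended).

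Of 9 genes of vesicle transport and fenestration 2 were higher, and of 11 basement membrane genes 2 were higher, with none lower by limma in either list, at an adjusted or an unadjusted p (0 and 0), or by voom (0). Over all genes tested, 8.74% were higher and 5.34% lower. Ehd4, an endocytic ATPase, rose by 1.05 ± 0.10, and Dnm2, which encodes dynamin-2, by 0.32 ± 0.07. The call of Dnm2 was lost when imiquimod replicate 2 or 3 or any single vehicle library was omitted. Cav1, which encodes the main protein of caveolae, had a log2 change of -0.02 ± 0.17 and Plvap, a protein of fenestrae, of 0.28 ± 0.18, values looked up because of the role of Mfsd2a. Neither passed by limma (adjusted p of 0.956 and 0.334). The basement membrane genes were Col4a1 and Col4a2, the paired collagen IV chains, at 26.8 ± 2.47 and 21.9 ± 2.04 FPKM in imiquimod cords and 9.98 ± 1.66 and 9.503 ± 1.48 FPKM in vehicle cords. They rose by 1.42 ± 0.13 and 1.20 ± 0.12 (limma adjusted p of 0.00158 and 0.00243).

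Of 10 genes of endothelial activation 8 were tested and 5 were higher, with a median of 1.04, where 8.74% of all genes tested were higher. Cd274, which encodes PD-L1, rose by 2.33 ± 0.20, Bst2, an interferon-induced restriction factor, by 3.83 ± 0.46 and Tnfrsf1a, a TNF receptor, by 1.04 ± 0.14. The other 2, named because they complete the 5, were the leukocyte adhesion molecules Icam1 (1.71 ± 0.25) and Vcam1 (0.85 ± 0.12). Selp and Sele were under the filter on low values. These genes are expressed by other cells as well.

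Of 122 tested genes in 8 vascular lists, with pericytes and smooth muscle left out, those whose log2 level ran most like the mean of the 3 junction members across the 6 libraries were Ehd4 (Pearson r = 0.99), Mmrn2 (0.99) and Nos3 (0.98). Most like the mean of the 4 transporters were Slc19a3, a thiamine transporter (0.99), Slc40a1 (0.97) and Ndp (0.96). The libraries fall into 2 groups, so these values describe the group difference as much as anything within it, and they carry no test.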

How the data were processed

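RNA sequencing gave 3 libraries from imiquimod-treated and 3 from vehicle-treated mice, grouped by the labels. The authors deposited FPKM per gene and library, which is the only unit used here; HISAT2 2.0.5, featureCounts 1.5.0-p3, DESeq2 1.16.1 and mm10 are named in the submitters' processing notes, with no roles. The sources used here do not give the strand setting, annotation release or treatment of multi-mapping. Of 54532 identifiers 54409 had a symbol and 54495 an exon length in GENCODE release M21, whose GRCm38 coordinates are printed for genes.

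Multiplied by exon length, the deposited FPKM lay close to multiples of a step fitted in each library, which was taken as a single fragment. On that scale 97.4% to 97.6% of values per library under 1000 fragments were whole within 0.05. The implied totals were in proportion to the size factors that a median of ratios gives (coefficient of variation 0.00895%), so no further scaling was applied. A gene of 2 kb with 3 fragments has an FPKM of 0.0639 to 0.0863, for counting error only. The libraries all differed (0 identical pairs).

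limma 3.58.1 (R 4.3.3), with its trend option, was applied to log2(FPKM + 0.1) of genes that reached a mean of 0.5 FPKM in imiquimod or vehicle libraries, with p-values adjusted by Benjamini-Hochberg over all of them. The fit was also run on simulated counts with the same dispersion for every gene, which checks the code and not the calls in these libraries. Ratios within libraries had two-sided exact permutation tests. Tables and plots used Python 3.11.15, SciPy 1.17.1, pandas 2.3.3, matplotlib 3.10.9 and NumPy 2.4.6. Alternatives were 2 other pseudocounts, other filters, quantile and median scaling, quality weights, voom on recovered fragments, a replicate block, removal of length and GC trends, and omission of each library; their use on the counts of the identity list, the transporter list and the separate ratio pairs was added after seeing the data. Members and lists were chosen with earlier results of these data known, so lists are described by counts and medians, with no list test; the leukocyte and platelet lists were added after values were seen. Named list genes are up to 3 higher and 3 lower ones with the smallest adjusted p, besides those said to be chosen after their values. The labels number the replicates in both groups but give no shared origin, and the main fit has no replicate block.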

Additional observations from a re-analysis of the deposited data

How the results depend on the processing

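All 16 alternatives kept the 4 higher members, and 11 kept both lower ones; Slco1a4 kept its call in all 16 and Mfsd2a in 11. With the replicate block (same-numbered libraries had correlations of deviations of 0.02, -0.10 and -0.03, and 0 of 6 libraries correlated best with their own number) 1 member was lower, the limma adjusted p of Mfsd2a was 0.0738, 1 other barrier transporter was lower, and 1330 genes passed, 894 higher and 436 lower, against 2326 (1444 and 882). Without a filter on low values 508 genes were lower and 0 other barrier transporters. Leaving out 1 library gave 847 (without vehicle replicate 1) to 2986 genes (without imiquimod replicate 2) (660 to 1690 higher, 187 to 1296 lower), 5 to 6 members (4 higher in each case, 1 to 2 lower), 12 to 20 identity genes higher and 0 to 6 transporters lower. Quantile normalization gave 1335 higher and 1287 lower genes, so that 50.9% of calls were higher, against 62.1%; it also turned the difference in log2 ratio of Ocln to Mfsd2a, imiquimod minus vehicle, to -0.0024, and Slc2a1, not called in any setting, was at -0.0247 without vehicle replicate 1 and at 0.182 without vehicle replicate 3. After removal of trends with the length and GC content of exons, the log2 changes were 1.06 for Cldn5, 1.12 for Cdh5, 1.29 for Pecam1, 1.15 for Egfl7, -0.81 for Slco1a4 and -0.33 for Mfsd2a, all past the threshold. Ocln had the fewest recovered fragments of the members, at 192 to 264 a library. The cause of the moves was not tested.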

Other observations

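Mural cells, which share the basement membrane with the endothelium, went both ways. Of 14 pericyte and smooth muscle markers 13 were tested, 2 were higher and 1 was lower, where 8.74% of all genes tested were higher and 5.34% lower. The median log2 change of the 13 was 0.07. Kcnj8, a potassium channel subunit of pericytes, rose by 0.65 ± 0.16 and Higd1b by 0.72 ± 0.18, whereas Rgs5, a regulator of G protein signalling in pericytes, fell by 0.93 ± 0.22. All 3 calls were lost when any single vehicle library was omitted (limma adjusted p up to 0.129 over the settings in which they ended). The summed level of the 14 markers was 91.2 to 132 FPKM in imiquimod cords and 108 to 112 FPKM in vehicle cords.

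Of 5 markers of lymphatic endothelium 4 were tested, of which 2 were higher, 1 was lower and 1, Lyve1, did not pass. At an unadjusted limma p under 0.05, 2 were higher and 2 were lower. By adjusted p, 8.74% of all genes tested were higher and 5.34% lower. Lyve1 was called lower only when imiquimod replicate 3 was omitted. Flt4, the VEGF receptor 3 gene, rose by 0.98 ± 0.13 (limma adjusted p = 0.00525) and kept its call in every alternative run. Pdpn, also a gene of reactive glia and fibroblasts, rose by 0.95 ± 0.22, and Prox1, which neural cells express too, fell by 0.39 ± 0.10; both calls were lost when any single vehicle library was omitted.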
